A study of Rattus norvegicus with 6 samples.

Results

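The results cover 10 genes of the CXC and CX3C chemokine families in punctured rat tail discs. They are the interferon-type ligands Cxcl9, Cxcl10 and Cxcl11, the homeostatic ligands Cxcl12, Cxcl13 and Cxcl14, the membrane-anchored ligands Cxcl16 and Cx3cl1, and the receptors Cxcr4 and Cx3cr1. The genes were chosen by name, and all 10 were found once among the 30562 genes of the count table. Of the 10, 9 passed the filter on low counts and were tested by edgeR, and Cxcl11 did not pass it.

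Bulk RNA was counted in 6 libraries, of which 3 carry the label AF-PTK@LEV@SPP1 and 3 are the PBS-injected controls. The donors were wild-type male Sprague-Dawley rats whose tail disc had been punctured with an 18 G needle at an age of 12 weeks. Injections into the disc were described as starting 24 h after surgery, with treatment over 8 weeks. AF-PTK@LEV@SPP1 is a vesicle made by fusing liposomes with detoxified bacterial outer membrane vesicles, loaded with siRNA against mouse Spp1 and displaying an annulus fibrosus-binding peptide whose linker reactive oxygen species can cut. The injected volume was 10 μL and the siRNA dose 1 mg/kg. The sample records differ from this account, since they name an untreated control, 14 days of treatment and macrophages sorted on F4/80 and CD11b from digested discs of mice. The matrix genes Col1a1 and Col2a1, products of fibroblasts and chondrocytes, took 3.84% and 1.74% of the counts on average in PBS and 5.44% and 2.63% in the AF-PTK@LEV@SPP1-labelled libraries, and the account of whole disc tissue was used here.

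Normalized CPM are counts scaled to a common library size after correction for library composition. The PBS libraries held 17942989, 16565291 and 17489851 counts, and those labelled AF-PTK@LEV@SPP1 held 17074981, 15560728 and 17855184. A gene with 3 counts, the smallest level taken as measured, stood at 0.154 to 0.193 normalized CPM, a limit that covers counting error only. The second and the third PBS libraries, replicates 2 and 3, were nearly identical, with a variance 1.33 times that of sampling and 16 of 14393 genes differing, whereas the 5 other pairs within a group had ratios of 51.3 to 107. Their counts were therefore summed and counted as 1 sample, which leaves 2 distinct PBS samples against 3. The methods of the study describe each library as coming from a separate rat, and why this pair is so close was not tested.

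Rat Spp1, the counterpart of the mouse gene that the siRNA is described as targeting, had a level of 8114, 4408 and 4414 normalized CPM across PBS replicates 1, 2 and 3, against 8047, 6893 and 8451 in the AF-PTK@LEV@SPP1-labelled libraries. Its level was thus not lower under the treated label, with a log2 fold change of 0.31 (SE 0.37) and an edgeR adjusted p of 0.628, and every direction given here is one between labels. Whether the siRNA acts on the rat transcript was not tested.

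Chemokines are small proteins that steer leukocytes along gradients by acting on receptors coupled to inhibitory G proteins. Interferon-type ligands are induced by interferon gamma and attract activated T cells through Cxcr3, while Cxcl12 holds blood progenitors in the marrow through Cxcr4 and Cxcl13 gathers B cells in lymphoid follicles through Cxcr5. Cxcl16 and Cx3cl1 are made as membrane proteins that tether cells bearing Cxcr6 or Cx3cr1 and that metalloproteinases can shed, and in an injured disc such signals accompany the entry of leukocytes and vessels into a tissue that normally has few of either.

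Of the 9 genes tested, Cxcl13 and Cxcl16 were lower in the AF-PTK@LEV@SPP1-labelled libraries at an adjusted p under 0.05 (edgeR's quasi-likelihood test, Benjamini-Hochberg adjustment over 15537 genes), and none was higher. Over all genes tested, 2.57% were called lower and 1.13% higher by the same rule. At an unadjusted p under 0.05, 3 of the 9 were lower and 1 was higher, against 13.0% and 12.4% of all genes tested. DESeq2, which gave all 10 an adjusted p, called 3 lower and 0 higher, against 8.83% lower and 6.71% higher of the 16109 genes to which it gave one. With the 6 libraries kept as separate samples, edgeR called 3 lower, Cxcl13, Cxcl16 and Cx3cr1, and 0 higher, where it called 9.93% of all genes lower and 8.20% higher. The median log2 fold change of the 9 genes was -0.46, against 0.05 over all genes tested.

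Values did not overlap between the groups for 6 of the 9 genes tested. Cxcl13, Cxcl16, Cxcr4 and Cx3cr1 were lower in every AF-PTK@LEV@SPP1-labelled library, which held for 20.1% of all genes tested, or 21.9% with the PBS pair taken as 1 sample. Cxcl12 and Cx3cl1 were higher in every such library, as were 21.8% of all genes tested, or 23.9% with the pair taken as 1 sample, so that the 2 of 9 found higher lie close to the share over the whole table. Levels are compared between libraries and not between genes, because counts were not divided by transcript length, and the gene named as leading a list has the highest CPM and not the highest level per length.

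**Figure D1:**
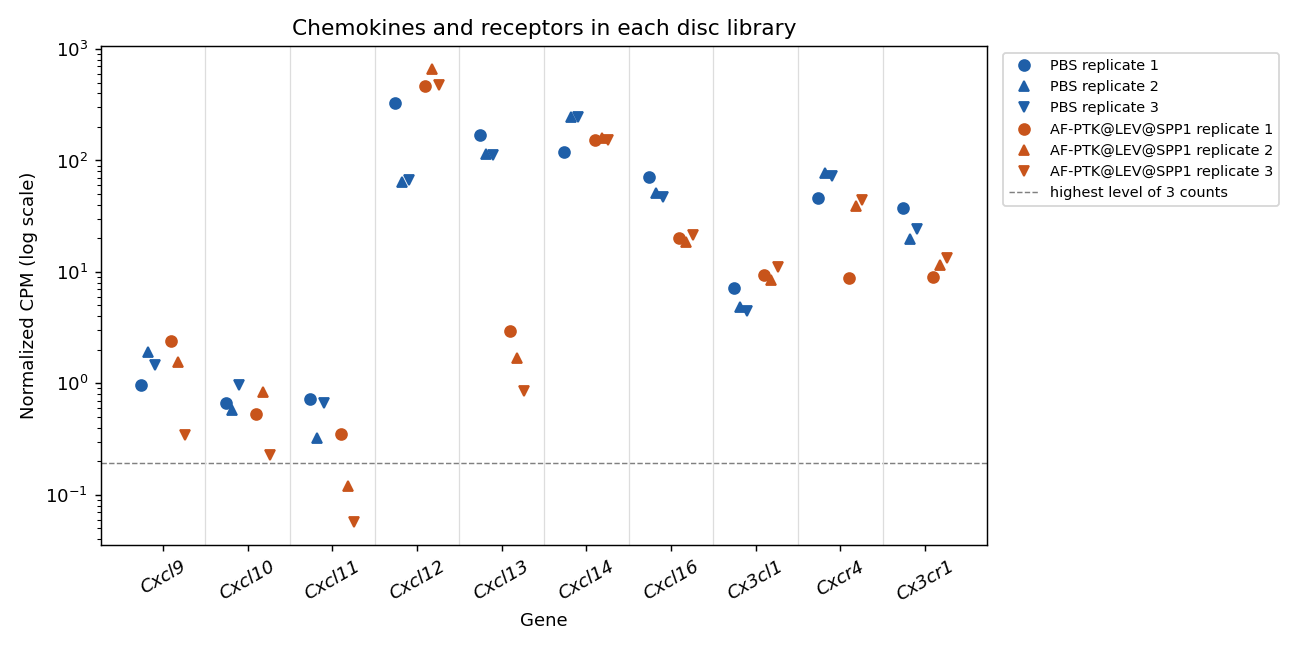
Normalized CPM (log axis) of the 10 genes in each library, with PBS in blue and AF-PTK@LEV@SPP1 in orange, symbols for the replicate number and a dashed line at 0.193, the highest level that 3 counts reach in a library. The Cxcl13 points of the AF-PTK@LEV@SPP1-labelled libraries lie at 0.854 to 2.94, far below those of PBS at 112 to 168, while the points of Cxcl9, Cxcl10 and Cxcl14 overlap.

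The interferon-type ligands had few counts in these libraries. Cxcl9 was at 0.975, 1.93 and 1.46 normalized CPM in PBS replicates 1 to 3 and at 2.41, 1.57 and 0.342 in AF-PTK@LEV@SPP1 replicates 1 to 3. The highest and the lowest Cxcl9 values were both from AF-PTK@LEV@SPP1-labelled libraries, so that the groups overlapped throughout. The counts behind them were 19, 30 and 24 against 41, 26 and 6, and the log2 fold change of 0.09 (SE 0.80) had an edgeR adjusted p of 0.954. Its sign turned under several settings, from -0.54 without AF-PTK@LEV@SPP1 replicate 1 to 0.56 at the other end of the libraries left out.

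Cxcl10, which attracts the same Cxcr3-bearing T cells, was at 0.667, 0.579 and 0.976 in PBS and at 0.529, 0.844 and 0.228 under the AF-PTK@LEV@SPP1 label. Its groups overlapped as well, and AF-PTK@LEV@SPP1 replicate 3 had the lowest value for both genes. With 4 to 16 counts per library, the log2 fold change of -0.46 (SE 0.60, edgeR adjusted p 0.664) was not distinguishable from 0. It was -0.23 without PBS replicate 3, and -0.94 and -0.09 without AF-PTK@LEV@SPP1 replicates 2 and 3.

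Cxcl11, the last ligand of Cxcr3, had 14, 5 and 11 counts in the PBS libraries and 6, 2 and 1 in those labelled AF-PTK@LEV@SPP1. The 6 counts of AF-PTK@LEV@SPP1 replicate 1 correspond to 0.352 normalized CPM and the 5 of PBS replicate 2 to 0.321, so that the libraries overlapped, and replicates 2 and 3 under the AF-PTK@LEV@SPP1 label were under the limit of 3 counts. With the PBS pair taken as 1 sample, Cxcl11 was lower without overlap. The filter on low counts removed the gene from the edgeR test. Without the filter edgeR gave it a log2 fold change of -1.80 (adjusted p 0.270), DESeq2 one of -1.82 (adjusted p 0.282), and edgeR without PBS replicate 2, where it passed the filter, one of -1.94 (adjusted p 0.184), and none of these called it. In the table's coordinates Cxcl11, Cxcl10 and Cxcl9 follow each other on the plus strand of chromosome 14 within 39.0 kb, with 0 other genes between them, and Cxcl13 lies 2.08 Mb away on the minus strand.

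Among the homeostatic ligands, Cxcl13 showed the smallest edgeR adjusted p of the 9 genes tested. Cxcl13, identifier ENSRNOG00000024899, was at 168, 114 and 112 normalized CPM in PBS replicates 1 to 3 and at 2.94, 1.69 and 0.854 in AF-PTK@LEV@SPP1 replicates 1 to 3. All PBS libraries were high, all AF-PTK@LEV@SPP1-labelled libraries were low, and nothing lay between. The group means were 141 ± 39.0 (SD, n = 2 distinct samples) and 1.83 ± 1.05 (SD, n = 3), 77.1-fold lower under the AF-PTK@LEV@SPP1 label. The log2 fold change was -6.27 (SE 0.50, edgeR adjusted p 0.0174). Without AF-PTK@LEV@SPP1 replicate 2 or replicate 3 it was -6.22 or -5.92 with an adjusted p of 0.0733 or 0.130, in fits that called 0 genes over the whole table although 3109 and 2699 had an unadjusted p under 0.05.

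The tested genes whose profile over the 5 distinct samples was most like that of Cxcl13 were Mmp12, a macrophage elastase, Ccl2, which attracts monocytes, and Il10, an anti-inflammatory cytokine. Their centred log2 CPM differed from those of Cxcl13 by a root mean square of 0.74, 0.81 and 0.83, against a median of 3.17 over all genes tested. Mmp12 was at 477, 282 and 294 in PBS and at 2.82, 3.55 and 4.38 under the AF-PTK@LEV@SPP1 label. A split between groups like that of Cxcl13 follows from how these genes were picked. Within the AF-PTK@LEV@SPP1-labelled libraries Mmp12 rose from replicate 1 to replicate 3, where Cxcl13 fell. Il10 had 2, 1 and 1 counts under the AF-PTK@LEV@SPP1 label, under the limit of 3, so that its profile there is set by the prior count and its likeness to Cxcl13 is not read further.

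Cxcl12, the retention signal of the marrow, was at 326, 64.4 and 67.2 normalized CPM in PBS replicates 1 to 3 and at 462, 667 and 477 in AF-PTK@LEV@SPP1 replicates 1 to 3. Every library labelled AF-PTK@LEV@SPP1 was above every PBS library, but on a log scale PBS replicate 1 stood closer to them than to the near-identical PBS pair. Means were 196 ± 184 (SD, n = 2 distinct samples) and 536 ± 114 (SD, n = 3). The log2 fold change of 1.45 (SE 0.68) missed the threshold, with an edgeR adjusted p of 0.255. Without PBS replicate 1 it was 3.01 with an adjusted p of 0.0468, in a fit where the summed pair is the only PBS sample and is taken to vary like the other group.

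Shroom2, Kcnn2 and Lifr had the profiles most like that of Cxcl12, with root mean square differences of 0.15, 0.18 and 0.18 against a median of 1.19. Kcnn2 had 2 counts in each library of the PBS pair, under the limit of 3, and its profile there is set by the prior count. Lifr, a receptor subunit for leukemia inhibitory factor, was at 43.3, 11.8 and 13.5 in PBS and at 71.6, 105 and 67.7 under the AF-PTK@LEV@SPP1 label. As with Cxcl12, PBS replicate 1 stood above the other PBS libraries, a likeness that follows from how the gene was picked.

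Markers of fat were likewise higher in every AF-PTK@LEV@SPP1-labelled library, with PBS replicate 1 above the PBS pair. This order was not particular to fat. The summed nucleus pulposus and notochord markers had it too, at 1381, 311 and 304 normalized CPM in PBS and 5444, 3322 and 2675 under the AF-PTK@LEV@SPP1 label. The 6 adipocyte markers summed to 403, 64.9 and 69.7 normalized CPM in PBS and to 974, 1610 and 700 under the AF-PTK@LEV@SPP1 label, led by Fabp4 (the gene of the list with the highest CPM averaged over the group means, here and for each list, though not always in each group), with 0 of 6 called by edgeR, 4 higher at an unadjusted p under 0.05 and 4 higher by DESeq2. Beside these counts, edgeR called 1.13% higher and 2.57% lower over the whole table, with 12.4% and 13.0% at an unadjusted p under 0.05. DESeq2 called 6.71% higher and 8.83% lower. Of 7 markers of marrow stromal cells, which are a known source of Cxcl12, edgeR called Lepr and Ebf3 higher and Il7 lower. In this list 2 were higher and 2 lower at an unadjusted p under 0.05, and likewise by DESeq2. Lepr was at 18.6, 8.16 and 8.66 in PBS and at 57.5, 65.6 and 73.1 under the AF-PTK@LEV@SPP1 label, whereas the whole list, led by Pdgfra, summed to 455, 499 and 502 against 395, 516 and 481, and without Pdgfra to 191, 145 and 139 against 216, 344 and 305. The part of these cells in the Cxcl12 values was not tested, and in bulk tissue fewer cells of a type and less RNA per cell cannot be told apart.

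Cxcl14, a ligand made by stromal and epithelial cells, was at 119, 245 and 247 normalized CPM in PBS replicates 1 to 3 and at 152, 160 and 154 in AF-PTK@LEV@SPP1 replicates 1 to 3. The AF-PTK@LEV@SPP1-labelled libraries lay close together, between PBS replicate 1 and the PBS pair, so that the groups overlapped. Its log2 fold change was -0.24 (SE 0.31, edgeR adjusted p 0.655), and -0.68 without PBS replicate 1 (adjusted p 0.105).

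Of the membrane-anchored ligands, Cxcl16, which tethers Cxcr6-bearing T cells and takes up oxidized lipoprotein, was lower. Cxcl16, identifier ENSRNOG00000026647, was at 71.1, 50.7 and 46.6 normalized CPM in PBS replicates 1 to 3 and at 20.1, 18.7 and 21.3 in AF-PTK@LEV@SPP1 replicates 1 to 3. The groups were well apart and the AF-PTK@LEV@SPP1-labelled libraries nearly equal. Means were 59.9 ± 15.9 (SD, n = 2 distinct samples) and 20.1 ± 1.34 (SD, n = 3), 2.99-fold lower under the AF-PTK@LEV@SPP1 label, with a log2 fold change of -1.58 (SE 0.18, edgeR adjusted p 0.0260). The adjusted p was 0.0633, 0.0888 and 0.138 without AF-PTK@LEV@SPP1 replicates 1, 2 and 3, at log2 fold changes of -1.62, -1.53 and -1.63.

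Cxcl16 overlaps Zmynd15 on the other strand of chromosome 10 by 395 bases, and whether counting used the strand was not given in the sources used here. Zmynd15 had 44, 27 and 35 counts in PBS and 15, 18 and 15 under the AF-PTK@LEV@SPP1 label, so that the Cxcl16 values are uncertain by the reads the pair may share.

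Cx3cl1, or fractalkine, was at 7.23, 4.89 and 4.45 normalized CPM in PBS replicates 1 to 3 and at 9.46, 8.44 and 11.1 in AF-PTK@LEV@SPP1 replicates 1 to 3. Each library labelled AF-PTK@LEV@SPP1 was above each PBS library, with PBS replicate 1 nearest to them. The log2 fold change was 0.70 (SE 0.26), with an unadjusted p of 0.0425 and an edgeR adjusted p of 0.183, and the gene was not called.

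Its receptor Cx3cr1, carried by monocytes and resident macrophages, was at 37.4, 19.9 and 24.3 normalized CPM in PBS and at 9.05, 11.5 and 13.4 under the AF-PTK@LEV@SPP1 label. The groups did not overlap, and ligand and receptor thus lay on opposite sides. Means were 29.7 ± 10.8 (SD, n = 2 distinct samples) and 11.3 ± 2.17 (SD, n = 3). The log2 fold change of -1.40 (SE 0.28) had an edgeR adjusted p of 0.0637, just over the threshold, and of 0.0275 with the 6 libraries kept as separate samples, 0.0450 without the filter on low counts and 0.000507 by DESeq2. Over all alternatives the adjusted p of Cx3cr1 ran up to 0.178.

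Cxcr4, the receptor of Cxcl12 on blood progenitors and most leukocytes, was at 45.9, 77.1 and 73.3 normalized CPM in PBS replicates 1 to 3 and at 8.75, 39.0 and 44.3 in AF-PTK@LEV@SPP1 replicates 1 to 3. AF-PTK@LEV@SPP1 replicate 1 stood far below the other libraries, and replicate 3 came within a small step of PBS replicate 1 without crossing it. The log2 fold change was -0.99 (SE 0.67, edgeR adjusted p 0.396), with a sign opposite to that of Cxcl12, and it was -0.58 without AF-PTK@LEV@SPP1 replicate 1 (adjusted p 0.252).

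Among the AF-PTK@LEV@SPP1-labelled libraries, the summed neutrophil, B cell, NK and macrophage markers were lowest in the same one as Cxcr4, replicate 1, while those of T cells were nearly equal in replicates 1 and 2. The 8 neutrophil markers, led by S100a9, summed to 1102, 172 and 163 normalized CPM in PBS and to 281, 2817 and 3895 under the AF-PTK@LEV@SPP1 label, with Ltf at or under 3 counts in every library and 0 of 7 tested genes called by edgeR, at an unadjusted p under 0.05 or by DESeq2. The 7 B cell markers, led by Cd79a, summed to 44.1, 5.14 and 3.97 in PBS and to 23.8, 61.2 and 92.8, with 0 called by edgeR, 1 higher at an unadjusted p under 0.05 and 0 by DESeq2. For comparison, 1.13% were called higher by edgeR over the whole table, 12.4% were higher at an unadjusted p under 0.05 and 6.71% by DESeq2. In the neutrophil and B cell lists PBS replicate 1 was the highest of PBS, where it was the lowest for Cxcr4. The part of these cells in the Cxcr4 values was not tested.

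**Figure D2:**
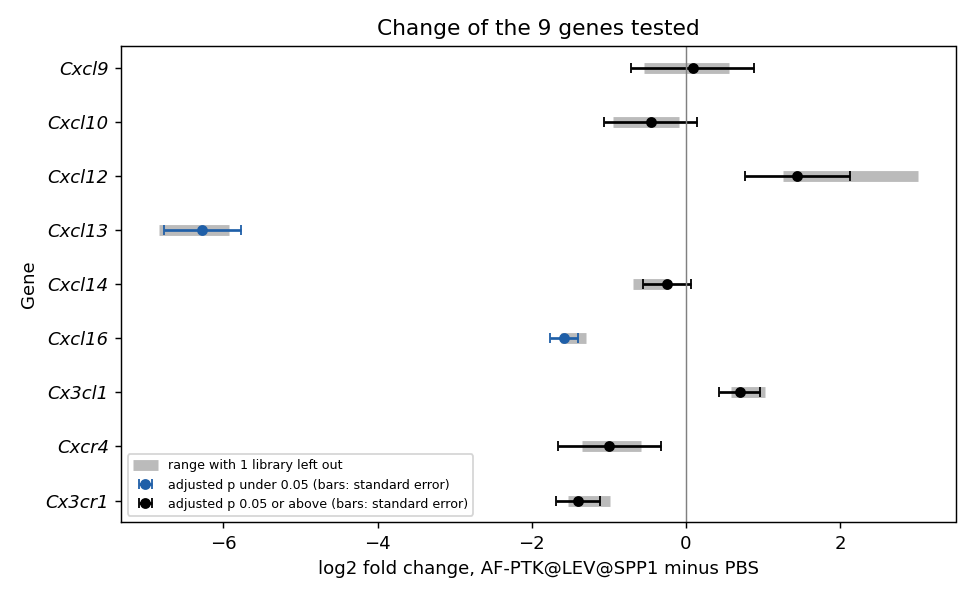
log2 fold change (AF-PTK@LEV@SPP1 minus PBS) of the 9 genes tested, with points for the edgeR estimate, thin bars for the standard error and grey bands for the range with 1 library left out. Cxcl13 at -6.27 and Cxcl16 at -1.58, in blue, passed an adjusted p of 0.05, and the band of Cxcl12 reaches 3.01 without PBS replicate 1.

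Macrophage and T cell markers were given beside the genes that were lower, since both cell types make or bind these ligands. The markers of B cells, which Cxcl13 gathers, lay on the other side. Of 7 tested, 0 had a log2 fold change below 0, at a median of 1.61. For NK cells it was 0 of 5 tested, at a median of 0.82, and edgeR called none in either list. The 14 macrophage and monocyte markers, led by Lyz2, summed to 3238, 2188 and 2166 normalized CPM in PBS and to 734, 2033 and 2040 under the AF-PTK@LEV@SPP1 label, and edgeR called Cd68, Cd14 and Ms4a7 lower and none higher. Lyz2 made up most of this sum in PBS and in AF-PTK@LEV@SPP1 replicates 2 and 3, and the other 13 markers summed to 1407, 922 and 921 against 463, 792 and 640. Cd14 was at 151, 134 and 134 in PBS and at 38.1, 36.1 and 41.4 under the AF-PTK@LEV@SPP1 label, a split like that of Cxcl16. Csf1r was at 261, 145 and 148 against 104, 111 and 101 with an edgeR adjusted p of 0.102, and Cd163, which is also a macrophage marker, was at 54.0, 29.5 and 29.0 against 47.1, 142 and 88.2. Of the 14 markers, 13 had a log2 fold change below 0 and Cd163 was the exception, at a median of -0.83, with 5 lower and 0 higher both at an unadjusted p under 0.05 and by DESeq2. The shares lower over the whole table were 2.57% by edgeR, 13.0% at an unadjusted p under 0.05 and 8.83% by DESeq2.

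Of 9 tested T cell markers, led by Cd2, edgeR called Cd2, Cd8a and Cd8b lower and none higher, with 6 lower and 0 higher at an unadjusted p under 0.05, 5 lower and 0 higher by DESeq2 (beside 2.57%, 13.0% and 8.83% lower in that order over the whole table) and a median of -1.26, and the list summed to 30.9, 31.1 and 31.3 normalized CPM in PBS and to 15.2, 15.1 and 17.4 under the AF-PTK@LEV@SPP1 label. Of the 9, 7 had a log2 fold change below 0, and Lck at 0.07 and Cd5 at 0.55 lay above it. The part of macrophages, T cells, B cells and NK cells in the values of Cxcl13, Cxcl16 and Cx3cr1 was not tested.

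The other genes of the pathway were taken from 5 lists of 58 genes, of which 52 were tested and 4 were called lower and 0 higher by edgeR, beside 2.57% and 1.13% over the whole table. At an unadjusted p under 0.05, 22 were lower and 2 higher, beside 13.0% and 12.4% over the whole table. DESeq2 called 21 lower and 0 higher, beside 8.83% and 6.71%, and edgeR on the 6 separate libraries called 18 lower and 0 higher, beside 9.93% and 8.20%. The 4 calls were 2 without PBS replicate 1, 1 without AF-PTK@LEV@SPP1 replicate 1 and 0 without replicate 2 or replicate 3. The median log2 fold change of these genes was -0.29, against 0.05 over all genes tested. The whole-table shares given here also stand beside the counts of each of the 5 lists below.

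Among 8 partner receptors and scavengers, led by Cd74, edgeR called 0, with 2 lower and 1 higher at an unadjusted p under 0.05 and 2 lower by DESeq2, at a median of -0.43. Cxcr6, the receptor of Cxcl16, was at 2.98, 4.05 and 4.03 normalized CPM in PBS and at 1.17, 1.21 and 1.02 under the AF-PTK@LEV@SPP1 label, an edgeR adjusted p of 0.0525. Ligand and receptor were thus both lower in every AF-PTK@LEV@SPP1-labelled library, although only Cxcl16 was called. For Cxcr6 the adjusted p was 0.00925 with the 6 libraries kept as separate samples, 0.00106 by DESeq2 and 0.0592 with those 6 separate libraries blocked on replicate number. Cxcr5, the receptor of Cxcl13, was at 1.49, 1.48 and 1.16 against 0.881, 1.27 and 0.797 with an adjusted p of 0.420, and AF-PTK@LEV@SPP1 replicate 2 lay above PBS replicate 3. Cxcr3, the receptor of the interferon-type ligands, was at 1.13, 0.707 and 0.488 against 0.646, 0.783 and 1.20 and overlapped between the groups.

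The scavenger Ackr3, which binds Cxcl12 and clears it, was at 116, 278 and 284 normalized CPM in PBS and at 85.3, 52.0 and 78.6 under the AF-PTK@LEV@SPP1 label. No library overlapped, and the edgeR adjusted p was 0.115. Ackr4, a decoy for Cxcl13 and several CC ligands, was at 16.1, 48.9 and 50.3 against 22.4, 19.8 and 17.99, with the AF-PTK@LEV@SPP1-labelled libraries just above PBS replicate 1 and below the PBS pair. Ackr2 was at 2.92, 1.54 and 1.77 against 8.11, 5.001 and 3.36, higher in every AF-PTK@LEV@SPP1-labelled library with an adjusted p of 0.193, while Ackr1 overlapped between the groups at 9.08, 7.01 and 6.59 against 5.29, 9.82 and 8.14. Cd74, which some chemokine-like ligands use, was at 179, 189 and 189 against 108, 189 and 142 and also overlapped.

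Of 9 genes that shed or trim the ligands, edgeR called 0, with 4 lower and 0 higher at an unadjusted p under 0.05 and 4 lower by DESeq2, at a median of -0.59. Adam17, a sheddase of Cx3cl1 and Cxcl16 that led the list by a small margin over Ctss and Adam9, was at 112, 165 and 174 normalized CPM in PBS and at 83.4, 75.3 and 88.6 under the AF-PTK@LEV@SPP1 label, an edgeR adjusted p of 0.100. Adam10, the other sheddase of both ligands, was at 124, 98.7 and 88.2 against 76.9, 121 and 104 and overlapped between the groups. Dpp4, which trims Cxcl12 and the interferon-type ligands to forms that signal poorly, was at 17.5, 4.05 and 3.66 against 26.4, 25.8 and 36.0, with PBS replicate 1 high as for Cxcl12 and an adjusted p of 0.226.

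Ctss, a protease that cleaves Cx3cl1, was at 191, 128 and 130 normalized CPM in PBS and at 47.6, 76.6 and 64.7 under the AF-PTK@LEV@SPP1 label, with an edgeR adjusted p of 0.0601. Adam9 at 116, 152 and 154 against 88.5, 85.6 and 88.2 and Rhbdf2, a partner of Adam17, at 18.1, 16.7 and 18.7 against 8.11, 11.1 and 12.6 were lower in every AF-PTK@LEV@SPP1-labelled library, with adjusted p of 0.0839 and 0.112. Adam8, Rhbdf1 and Ctsg overlapped, and Ctsg, a granule protease of neutrophils, ranged from 0.514 in PBS replicate 2 to 92.4 in AF-PTK@LEV@SPP1 replicate 3.

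Upstream of the interferon-type ligands, 15 genes were listed and 11 tested, with 0 called by edgeR, 6 lower and 0 higher at an unadjusted p under 0.05 and 6 lower by DESeq2, at a median of -0.46. Ifng had 0 counts in 5 of the 6 libraries, and Ifnb1 had 0 in all 6, which is under the limit of 0.154 to 0.193 normalized CPM. Jak1, which led the list, was at 239, 247 and 246 normalized CPM in PBS and at 227, 241 and 222 under the AF-PTK@LEV@SPP1 label, and the groups overlapped.

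Of 18 genes that couple or desensitize the receptors, edgeR called Rgs1 and Rgs16 lower and none higher, with 5 lower and 1 higher at an unadjusted p under 0.05 and 5 lower and 0 higher by DESeq2, at a median of -0.02. Rgs1, which accelerates the shut-off of inhibitory G proteins in leukocytes, was at 11.2, 9.77 and 9.27 normalized CPM in PBS and at 1.35, 2.11 and 2.79 under the AF-PTK@LEV@SPP1 label, and Rgs16, of the same family, at 12.2, 19.1 and 23.8 against 4.58, 4.58 and 4.38. Both were clear of overlap, at log2 fold changes of -2.32 (SE 0.33, edgeR adjusted p 0.0372) and -1.91 (SE 0.27, edgeR adjusted p 0.0370). Gnai2, which led the list and is the main inhibitory G protein subunit of leukocytes, was at 385, 353 and 357 against 390, 364 and 376, with overlap between the groups.

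Genes that act with Cxcl13 in lymphoid tissue showed the lowest median of the 5 lists, -2.21 over 6 tested genes, of which edgeR called Tnfsf11 and Ccr7 lower and none higher, with 5 lower and 0 higher at an unadjusted p under 0.05 and 4 lower and 0 higher by DESeq2. The shares lower over the whole table were 2.57%, 13.0% and 8.83% in that order. Tnfsf11, the osteoclast factor RANKL that also drives lymph node formation and led the list in PBS but not under the AF-PTK@LEV@SPP1 label, was at 111, 137 and 135 normalized CPM in PBS and at 9.16, 10.5 and 8.99 under the AF-PTK@LEV@SPP1 label, a log2 fold change of -3.70 (SE 0.15, edgeR adjusted p 0.00863). Ccr7, which guides T cells and dendritic cells to lymph nodes, was at 3.49, 2.51 and 3.29 against 0.470, 0.603 and 0.683. Like Cxcl13, both were lower in every AF-PTK@LEV@SPP1-labelled library. Ccl21 and Tnfrsf11a were also lower in every such library, with edgeR adjusted p of 0.0795 and 0.0691. Ltbr, a receptor upstream of Cxcl13 in stromal cells, was at 60.3, 63.6 and 69.2 against 50.9, 38.6 and 49.8 with an adjusted p of 0.158, and Ltb, at a log2 fold change of 0.54, overlapped.

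Over all 16 lists of cell markers, 104 of 113 genes were tested and edgeR called 8 lower and 2 higher, beside 2.57% and 1.13% over the whole table. At an unadjusted p under 0.05, 22 were lower and 13 higher, beside 13.0% and 12.4%, DESeq2 called 18 lower and 14 higher, beside 8.83% and 6.71%, and edgeR on the 6 separate libraries called 18 lower and 4 higher, beside 9.93% and 8.20%. Their median log2 fold change was 0.49. Among 6 pericyte markers, led by Rgs5, Kcnj8 was called lower, with 3 lower at an unadjusted p under 0.05, 2 lower by DESeq2 and none higher. The pericyte list summed to 506, 711 and 712 normalized CPM in PBS and to 574, 481 and 503 under the AF-PTK@LEV@SPP1 label. No gene was called by edgeR in the other lists, those of B cells, neutrophils, adipocytes and endothelial, NK, nucleus pulposus, annulus, chondrocyte, osteoblast, muscle, erythroid and keratinocyte cells. The endothelial markers, led by Pecam1, summed to 558, 673 and 657 against 415, 485 and 485, with 4 of 7 lower at an unadjusted p under 0.05 and 3 by DESeq2, and the nucleus pulposus and notochord markers, led by Car3, to 1381, 311 and 304 against 5444, 3322 and 2675, with 4 of 6 higher at an unadjusted p under 0.05 and 4 by DESeq2. Erythroid markers, led by Hba-a1, summed to 2372, 3183 and 3274 against 2495, 20368 and 14005, and muscle markers, led by Acta1, to 772, 991 and 1006 against 789, 8135 and 2082, so that AF-PTK@LEV@SPP1 replicates 2 and 3 stood apart from replicate 1 here too. At an unadjusted p under 0.05, 1 erythroid marker was higher and 0 muscle or NK markers differed, and DESeq2 called 2 erythroid markers higher and 0 in the muscle and NK lists. The NK markers, led by Nkg7 and with Gzma at or under 3 counts, summed to 11.4, 7.39 and 4.94 against 6.87, 27.5 and 27.8. Their part in the chemokine values was not tested.

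The markers of matrix, bone and skin, in which edgeR called 0, were at other orders of libraries. Those of annulus and tendon, led by Col1a1, summed to 53650, 74232 and 75079 normalized CPM in PBS and to 114113, 80941 and 96528 under the AF-PTK@LEV@SPP1 label, with 1 higher at an unadjusted p under 0.05 and 2 by DESeq2. Chondrocyte markers, led by Col2a1, summed to 19239, 30233 and 30096 against 36906, 26179 and 42091, with 2 lower at an unadjusted p under 0.05 and 1 by DESeq2. The whole-table shares were 12.4% higher and 13.0% lower at an unadjusted p under 0.05, and 6.71% and 8.83% by DESeq2. Osteoblast markers, led by Ibsp, summed to 4478, 1774 and 1768 against 2102, 3048 and 1750, and keratinocyte markers, led by Dsg3, to 11.4, 16.8 and 14.6 against 11.4, 13.3 and 13.3, with none under an unadjusted p of 0.05 or called by DESeq2 in either.

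The sequence before the start of each of the 10 genes was taken from RefSeq (GRCr8) as 250 bases, and both strands were searched for 6 motifs. They were the NF-kB motif, GAAANNGAA of interferon-stimulated response elements, TTCNNNGAA bound by STAT proteins, TGANTCA bound by AP-1, ACGTG of hypoxia response elements, and the TATA box TATAAA, added after the sequences had been read. Over 33469 promoters of the same length, 6.33%, 8.12%, 7.67%, 6.34%, 16.6% and 12.9% held them in that order. The promoters of the called genes Cxcl13 and Cxcl16 are shown because both genes were lower together, and that of Cxcl10 for comparison, with the motifs in capitals. They lie at chr14:13917921-13918170 and chr10:55669951-55670200 on the minus strand and at chr14:15988816-15989065 on the plus strand, each written 5′ to 3′ up to the base before the start.
Cxcl13: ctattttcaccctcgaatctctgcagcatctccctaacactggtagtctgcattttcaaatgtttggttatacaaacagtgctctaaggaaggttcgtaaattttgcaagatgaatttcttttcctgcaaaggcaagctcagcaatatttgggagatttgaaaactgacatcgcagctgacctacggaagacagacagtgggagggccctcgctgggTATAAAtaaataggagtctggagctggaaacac
Cxcl16: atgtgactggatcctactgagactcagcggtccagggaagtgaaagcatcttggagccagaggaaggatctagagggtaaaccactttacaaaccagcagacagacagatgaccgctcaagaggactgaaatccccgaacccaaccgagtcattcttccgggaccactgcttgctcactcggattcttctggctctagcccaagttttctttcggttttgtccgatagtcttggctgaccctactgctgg
Cxcl10: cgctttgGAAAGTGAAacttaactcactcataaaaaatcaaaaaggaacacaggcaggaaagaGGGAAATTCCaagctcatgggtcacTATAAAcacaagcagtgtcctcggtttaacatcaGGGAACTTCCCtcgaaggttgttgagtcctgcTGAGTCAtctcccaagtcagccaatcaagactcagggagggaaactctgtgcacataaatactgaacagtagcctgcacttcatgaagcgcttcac

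Of the 6 motifs, Cxcl13 held the TATA box alone, 28 to 33 bases before the start, and Cxcl16 held none. Cxcl10, whose level did not differ detectably, held the NF-kB motif at 3 places, 2 of which overlap, and 1 match each to the interferon, AP-1 and TATA motifs. Of the 10 promoters, 2 held the NF-kB motif, those of Cxcl10 and Cxcl11, 3 the AP-1 motif, those of Cxcl10, Cxcl11 and Cxcl14, and 5 the TATA box, those of Cxcl10, Cxcl11, Cxcl13, Cx3cl1 and Cxcr4. The interferon motif was in Cxcl10 alone, the STAT motif in Cxcl11 and the hypoxia motif in Cxcl9. A match describes letters and not a bound site.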

How the data were processed

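The authors deposited counts, whole numbers of reads per Ensembl rat gene in each of 6 libraries, without normalization. The submitters' processing notes name FastQC, Trimmomatic, HISAT2, featureCounts and DESeq2 without versions, and mm10, a mouse build, although the identifiers are those of rat. The build of the table's coordinates and the use of strand are not given in the sources used here, and the notes name a stranded kit. Columns were matched to samples by group and replicate number, taking the group named for the disc model as the PBS control.

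Counts of PBS replicates 2 and 3 were summed. Genes were filtered with filterByExpr (minimum count of 10), normalized with TMM and tested with edgeR 4.0.16 in R 4.3.3 by the quasi-likelihood test, with Benjamini-Hochberg adjustment across all 15537 genes tested and a threshold of 0.05. The SE was the log2 fold change over the square root of F. The common biological coefficient of variation was 0.302. Means and SD of normalized CPM count the pair once, as its mean. Profiles were compared as centred log2 CPM with a prior count of 2.

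Alternatives were 6 separate libraries, these 6 with the replicate number as a block, RLE size factors, library size alone, no filter, a minimum count of 50, DESeq2 1.42.0, limma-voom (limma 3.58.1), a robust fit, and each library left out. The code was tested on simulated data. Named genes are all 10 chemokine genes, of each pathway list the called gene and the one with the highest CPM and any receptor or protease of a chemokine named here, of each marker list its sum, calls and gene of highest CPM, Spp1, and the 3 most similar genes of Cxcl13 and Cxcl12. Csf1r, Cd163, Cd14, Lepr, Ltbr and the other list genes named beyond this rule were chosen after their values were seen. List genes were matched by name, or by synonym in the GRCr8 gene table. The members and lists were chosen with earlier results of these data known.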

Additional observations from a re-analysis of the deposited data

How the results depend on the processing

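Cxcl13 and Cxcl16 were lower in every alternative and were called in 13 and 12 of 15, losing the call only with a library labelled AF-PTK@LEV@SPP1 left out. In these fits fewer samples were used, and 83 genes were called lower over the whole table without replicate 1 and 0 without replicate 2 or 3. Of the values of the 9 genes under the alternatives, 118 kept their side, 4 passed the threshold, 5 lost it and 6 changed sign. All 6 were of Cxcl9, at -0.012 with 6 separate libraries, -0.26 with these blocked on replicate number, -0.31 by limma-voom, and -0.54 to 0.56 with a library left out (-0.25 without PBS replicate 1, -0.01 without PBS replicate 3, -0.54 without AF-PTK@LEV@SPP1 replicate 1). The cause was not tested.

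Over the whole table, calls were 400 lower and 175 higher. They were 1494 and 1233 with 6 separate libraries, 1422 and 1081 by DESeq2, and 0 to 396 and 0 to 170 with a library left out. The 6 separate libraries with the replicate number blocked, which changes both choices at once, gave 434 lower and 307 higher. The chemokine genes called lower went from 2 to 3 with 6 separate libraries and by DESeq2 and to 3 without the filter, and from 0 to 2 with a library left out, and those called higher from 0 to 1, Cxcl12 without PBS replicate 1. Of the pathway genes, 4 were called lower, against 18 with 6 separate libraries, 7 with these also blocked on replicate number, 21 by DESeq2 and 0 to 4 with a library left out, and 0 higher, against 1 with the 6 libraries blocked and 0 to 1 with a library left out.

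Libraries of the same number correlated at -0.32, -0.27 and -0.08 in their deviations from the group means, and not every library correlated best with its own number. PBS replicates 2 and 3 are nearly identical, so these 3 values are not independent. They cannot show whether libraries of the same number were paired. No scaling moved the median of all genes by more than 0.1. The interferon-type ligands had 1 to 41 counts a library. Cxcl11 was under the limit of 3 counts in AF-PTK@LEV@SPP1 replicates 2 and 3, and the part of depth in the spread of Cxcl9 and Cxcl10 was not tested.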
